A study of Mus musculus with 6 samples.

Results

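A module of 33 genes for protein secretion and the unfolded protein response, of 31053 features counted, was followed through the cell classes of the adult mouse pancreas. The genes were chosen by gene symbol, and all 33 were found in the count tables, Ero1b under its older symbol Ero1lb. By role they comprised 10 chaperones and co-chaperones of the endoplasmic reticulum (ER), 6 genes of disulfide bond chemistry, 2 lectin chaperones, 4 genes of the translocon, 4 genes of ER-associated degradation (ERAD) and 7 signalling genes.

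Proteins destined for secretion enter the ER through the Sec61 channel, are folded there by chaperones and disulfide isomerases, and are extracted for degradation by ERAD when folding fails. When unfolded protein accumulates, the sensors IRE1, PERK and ATF6 start the unfolded protein response, in which XBP1, ATF4 and ATF6 raise transcription of folding and degradation genes. Acinar cells, which make the digestive enzymes, and plasma cells, which make antibodies, are known for large ERs, and XBP1 is required for the full secretory state of both.

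The mice, whose genetic background was C57Bl/6J, were of the R26[CA]30EYFP strain. Their pancreatic cells were separated by EYFP, a yellow fluorescent protein whose presence marks the labelled cells, and their RNA was counted cell by cell in droplets. Each of 3 runs gave 1 EYFP positive and 1 EYFP negative library, 6 in all. Run 3 was the pancreatitis group, taken on day 9 after injury with cerulein, which overstimulates acinar cells and inflames the organ (7 injections of 50 ug/kg on each of 2 days), and runs 1 and 2 were the untreated homeostasis group, so 2 pancreatitis libraries stood against 4 homeostasis libraries. Run 3 and pancreatitis cannot be told apart, and since nothing in the labels says that libraries came from separate animals, p-values here reflect only how the libraries spread, which may be technical. The count tables held 0 features for EYFP, which left the separation by EYFP unchecked.

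The libraries held 1044718 to 23658431 UMIs (unique molecular identifiers, 1 per captured transcript), and 4734 cells in 10 marker-based classes were used. Haemoglobin made up 62.6% of all UMIs in the EYFP negative and 20.2% in the EYFP positive pancreatitis library, against 0.213% to 7.23% in homeostasis. The 2 libraries of a run shared 19, 68 and 13 barcodes in runs 1, 2 and 3, while 1, 1 and 2 were shared between libraries of different runs, and the copy with fewer UMIs was left out. With those copies kept, 25 of 31 members were called higher in acinar-like cells than in the other classes and 24 of 31 in plasma-like than in B-like cells, against the 24 and 27 given below. The shares of all genes called in that setting are not given here. The enzyme gene Cpa1 had a median of 26916 CPM (the UMIs of a gene divided by the summed UMIs of a class in a library and scaled to 1e6) in acinar-like sums and at most 419 CPM in any other class. The antibody joining chain gene Jchain had 30153 and 34314 CPM in plasma-like sums and at most 133 CPM elsewhere. Both genes were in the marker lists that named the classes. Cells with enzyme or antibody shares at odds with their class had been left out, so these values do not test the names.

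Acinar-like cells numbered 571. EYFP positive and EYFP negative pancreatitis libraries held 99 and 369 of them, and the homeostasis libraries 38 and 35 (EYFP positive runs 1 and 2) and 8 and 22 (EYFP negative runs 1 and 2). The EYFP positive library of run 2 stood apart, with 31 of its 35 acinar-like cells in a small cluster, cluster 18. Enzyme genes gave a median of 10.3% of the UMIs of a cell in that cluster and 76.3% in the largest acinar-like cluster, cluster 13. The nuclear RNA Malat1 had 126165 CPM in the cluster 18 cells of that library and 33.1 to 304 CPM in the cluster 13 sums. Plasma-like cells numbered 30, of which EYFP negative runs 1 and 2 held 9 and 17. Plasma-like values below therefore rest on these 2 homeostasis libraries, and the comparisons with plasma-like cells could not be fitted without either of them.

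Of the 28 members with a promoter window in RefSeq (build GRCm38.p6, 250 bases upstream of the start), 9 carried the ER stress response element CCAAT-N9-CCACG on either strand, 32.1%, against 35 of 27025 genes, 0.1295%. This element is the known binding site of ATF6 with the CCAAT-binding factor NF-Y. The members were chosen as genes of secretion and the unfolded protein response, so this share describes the list and is not a test. The windows around it are shown for 5 members whose levels in plasma-like and B-like cells are given below, with the CCAAT and CCACG parts, or ATTGG and CGTGG where the element lies on the other strand, in capitals. Creld2 is at chr15:88819505-88819553 (+), Derl3 at chr10:75893227-75893275 (+), Dnajc3 at chr14:118937812-118937860 (+), Hspa5 at chr2:34772010-34772058 (+) and Hsp90b1, which holds 2 elements, at chr10:86705518-86705671 (-), each upstream of the gene's start.
Creld2: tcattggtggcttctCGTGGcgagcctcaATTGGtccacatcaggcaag
Derl3: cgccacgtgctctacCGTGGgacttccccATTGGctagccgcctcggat
Dnajc3: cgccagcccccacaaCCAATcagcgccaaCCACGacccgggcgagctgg
Hspa5: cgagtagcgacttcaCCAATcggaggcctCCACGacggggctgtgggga
Hsp90b1: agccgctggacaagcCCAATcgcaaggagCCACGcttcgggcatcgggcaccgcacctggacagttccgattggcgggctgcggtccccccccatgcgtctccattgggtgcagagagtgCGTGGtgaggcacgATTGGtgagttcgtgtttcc

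The element was also in the windows of Calr, Canx, Ero1b and Pdia6. A CCAAT box alone (which overlaps the element) stood in 22 of the 28 member windows, 78.6%, against 37.5% of all genes. Also searched on both strands were the UPRE core TGACGTGG and TGATGNAAT, a form of the C/EBP-ATF element of ATF4 targets. They were in 0 of 28 member windows, against 0.603% and 0.910% of all genes. TGATGNAA with another last base stood in the windows of Asns (tgatgaaac) and, on the other strand, Chac1 and Herpud1 (gttgcatca). Such forms were not counted over the members or over all genes. A match is a run of letters in a window and not a measured binding site.

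Summed over all 33 genes, the module took a larger share of UMIs in acinar-like and plasma-like cells than in lymphocytes, endothelial or ductal cells once the enzyme transcripts were left out of the total. Enzyme genes made up 76.2% and 72.0% of acinar-like UMIs in the EYFP positive and EYFP negative pancreatitis libraries, and 76.7%, 22.0%, 74.2% and 65.2% in homeostasis (EYFP positive runs 1 and 2, then EYFP negative runs 1 and 2). Of all acinar-like UMIs the module took 0.428% and 0.412% in pancreatitis, and 0.420%, 1.35%, 0.466% and 0.580% in homeostasis. Without enzyme UMIs it took 1.80% and 1.47% in pancreatitis, and 1.80%, 1.74%, 1.80% and 1.67% in homeostasis. EYFP positive run 2 stood apart on the total that includes the enzymes and lay within the range of the other libraries without them.

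Plasma-like sums held 1.45% and 1.74% module UMIs, of totals that kept antibody UMIs. The antibody gene Igkc alone had 252368 of their 607619 UMIs. Plasma-like shares and acinar-like shares without enzymes are therefore not on like totals. Fibroblast-like sums held 0.974% and 1.08% in pancreatitis and 0.428%, 0.640% and 0.631% in homeostasis. Macrophage, monocyte or dendritic-like sums held 0.41% to 0.68%, ductal-like 0.46% to 0.58%, endothelial-like 0.38% to 0.46%, B-like 0.32% to 0.43%, T or NK-like 0.33% to 0.39% and erythroid-like 0.0973% and 0.0984%. Cell by cell, the median acinar-like cell gave 1.37% to 1.81% of its UMIs other than enzymes to the module across the 6 libraries, and the median plasma-like cell 1.04% and 1.59%.

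**Figure D1:**
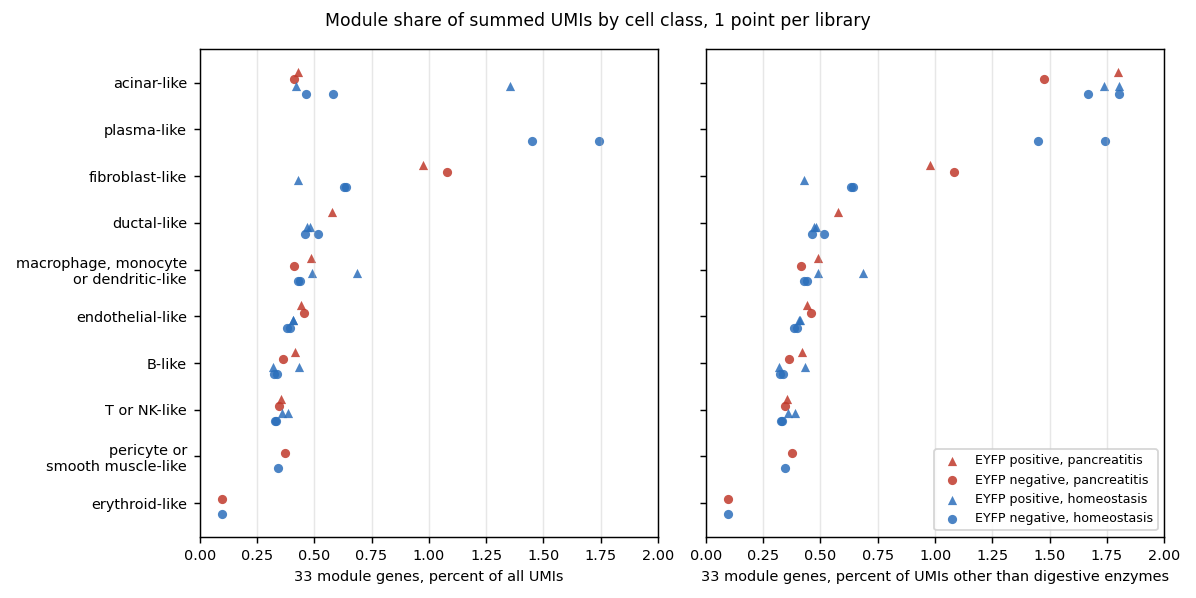
Percent of summed UMIs from the 33 genes (x axis) by cell class (y axis), 1 point per library; the left panel uses all UMIs and the right panel leaves out digestive enzyme UMIs. Acinar-like libraries sit at 0.412% to 1.35% on the left and at 1.47% to 1.80% on the right, while B-like libraries stay at 0.32% to 0.43%. Antibody UMIs stay in the totals of both panels.

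The choice of total also set where single members peaked. Without enzyme UMIs, 13 members had their highest mean level in plasma-like cells, 12 in acinar-like cells and 3 (Hspa5, Pdia3 and Calr) in fibroblast-like cells. With all UMIs, the counts were 16, 6 and 4. Both totals kept the antibody UMIs, which dilute the other genes in plasma-like sums. Pdia2, Erp27, Ero1b, Sel1l, Chac1 and Asns were highest in acinar-like cells on both totals. EYFP positive run 2 carried some of these means. Without that library, acinar-like Sel1l averaged 229 CPM, against 242 CPM in plasma-like cells, and was still highest in acinar-like cells without enzymes, at 779.6 CPM, while Herpud1 and Sec61a1 left the acinar-like count of 12, which became 11 with Ssr4 added. With all UMIs the acinar-like count became 5.

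**Figure D2:**
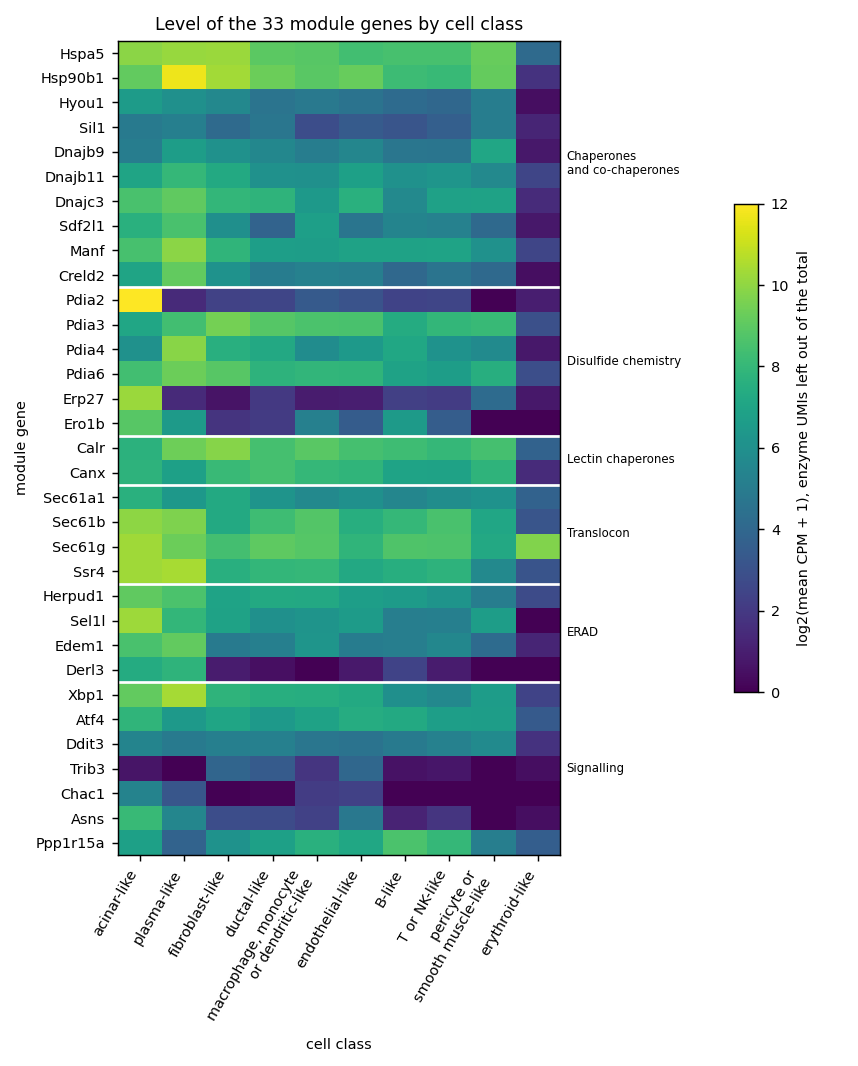
Mean level of each member (rows, grouped by role) in each class (columns) as log2(CPM + 1), with enzyme UMIs left out of the total. Pdia2 and Erp27 are bright in the acinar-like column only, Xbp1, Hsp90b1, Pdia4, Creld2 and Manf are brightest in the plasma-like column, and Hspa5, Calr and Pdia3 in the fibroblast-like column. Antibody UMIs stay in the total.

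Acinar-like cells were compared with the mean of the other classes to ask which module genes the enzyme-making cells carry above the rest. Of the 31 members that could be tested, 24 were higher and 0 lower in acinar-like cells (adjusted p under 0.05, edgeR quasi-likelihood test with Benjamini-Hochberg adjustment). Of all 9882 genes tested, 19.9% were called higher and 10.9% lower. The median log2 fold change was 2.08 over the members and -0.09 over all genes. It was 1.85 over the 26 members with UMIs in every class, and the folds of the others depend on a prior count. On plain library sizes, which let the enzymes dilute every other gene, all genes shifted to a median of -2.12, 12 members were called higher and 9 lower, and the members stood 2.20 above the median of all genes, against 2.16 in the TMM-scaled fit. Fold changes between acinar-like and other cells are therefore relative to the bulk of genes. Shares of all genes called on plain sizes or in the other alternative settings are not given, here or below. Counts of members called in those settings lack that background.

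The translocon genes were all higher in acinar-like cells. Ssr4 (ENSMUSG00000002014), a subunit of the signal sequence receptor beside the channel, had a median of 1181 CPM without enzymes in acinar-like sums (274 to 2131) and differed by 3.37 ± 0.29 (log2 fold change ± SE, here and below). The SE was derived from the test, as the absolute fold change divided by the square root of the quasi-likelihood F. Sec61b, the beta subunit of the channel, differed by 2.57 ± 0.28. Sec61g, the gamma subunit, differed by 1.98 ± 0.29 but by -0.06 on plain library sizes. The channel pore gene Sec61a1 differed by 1.73 ± 0.26 but by 0.037 on plain sizes. Its acinar-like mean was 100.7 CPM with EYFP positive run 2 and 35.5 CPM without that library. Ssr4 and Sec61b were called higher on both scalings.

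Disulfide chemistry held a pair of genes found almost entirely in acinar-like cells. Pdia2 (ENSMUSG00000024184), the disulfide isomerase of the pancreas, had 781, 1323 and 2785 CPM as lowest, median and highest value of the 6 acinar-like sums and at most 26.2 CPM in any library of any other class. It differed by 10.49 ± 0.34. Erp27 (ENSMUSG00000030219), a non-catalytic relative of the isomerases, had 252, 367 and 526 CPM in acinar-like sums, at most 34.7 CPM elsewhere and a fold change of 9.06 ± 0.28. Every acinar-like library lay above every library of every other class for both genes. The low Pdia2 counts elsewhere were set against those of the enzyme gene Cpa1: 45.2 Pdia2 UMIs were counted per 1000 Cpa1 UMIs in acinar-like cells, 47.2 in macrophage, monocyte or dendritic-like, 40.1 in T or NK-like, 37.0 in B-like, 30.2 in endothelial-like and 29.3 in ductal-like cells (fibroblast-like and plasma-like cells had 1 Pdia2 UMI each). For Erp27 the same ratio was 16.3 in acinar-like, 41.1 in B-like, 34.4 in T or NK-like and 5.04 in endothelial-like cells. The part of free RNA in the droplets in these low counts was not tested.

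Ero1b (ENSMUSG00000057069), the oxidase that recharges the isomerases, had 63.9, 122 and 493 CPM in acinar-like sums and a fold change of 6.22 ± 0.32. B-like sums also carried it, at 70.5, 84.4 and 131 CPM, while ductal-like sums had at most 8.02 CPM. The widely used isomerases were a different case. Pdia6 differed by 1.27 ± 0.25 but by -0.60 on plain sizes. Pdia3, which works with the lectin chaperones, had 31.1, 43.1 and 53.3 CPM in acinar-like sums, against 451 to 987 CPM in fibroblast-like sums, and gave -0.54 ± 0.28 (adjusted p = 0.136). Pdia4 gave 0.03 ± 0.31. On plain sizes Pdia3 and Pdia4 were called lower in acinar-like cells (-2.53 and -2.14).

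ERAD genes were all higher in acinar-like cells. Sel1l (ENSMUSG00000020964), the adaptor of the HRD1 ubiquitin ligase, differed by 4.66 ± 0.29, Edem1 (ENSMUSG00000030104), a lectin that hands misfolded glycoproteins to ERAD, by 3.24 ± 0.22, and Herpud1, a membrane component of the same complex, by 2.29 ± 0.26. Derl3 (ENSMUSG00000009092), a derlin of the ER membrane, had 170 UMIs in acinar-like and 2 in ductal-like cells, a ratio of 71.8 on summed UMIs (exact 95% counting interval 19.6 to 598). Macrophage, monocyte or dendritic-like, erythroid-like and pericyte or smooth muscle-like cells had 0 Derl3 UMIs. All 4 genes were also called higher on plain library sizes. For Sel1l and Herpud1 that setting included EYFP positive run 2. Their acinar-like means were 635 and 289 CPM with that library and 229 and 90.7 CPM without it. Plain sizes without it were not tested.

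The chaperones split. Sdf2l1 (3.06 ± 0.31), Creld2 (2.69 ± 0.31), Manf (2.34 ± 0.30), Hyou1 (2.23 ± 0.31), Sil1 (2.08 ± 0.39), Dnajc3 (1.97 ± 0.24), Dnajb11 (1.33 ± 0.26) and Hspa5 (1.22 ± 0.23) were called higher. Hspa5 (ENSMUSG00000026864) encodes BiP, the central Hsp70 chaperone of the ER, for which Hyou1 and Sil1 are exchange factors and the DnaJ genes co-chaperones. Its fold change was -0.19 on plain sizes, and those of Sil1 (-0.14) and Dnajb11 (-0.77) changed sign as well. Hsp90b1, the ER Hsp90 (0.51 ± 0.26, adjusted p = 0.141), and Dnajb9 (-0.16 ± 0.41) did not pass, and on plain sizes both were called lower in acinar-like cells (-1.07 and -2.52). Of the lectin chaperones, Canx was called higher (0.85 ± 0.24) but gave -1.03 on plain sizes, and Calr did not pass (-0.12 ± 0.28) but was called lower on plain sizes (-2.08), as was Canx.

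Among signalling genes, Asns (ENSMUSG00000029752), the asparagine synthetase and a target of ATF4, had 46.2, 64.9 and 173 CPM in acinar-like sums, against at most 34.9 CPM in classes other than plasma-like cells. It differed by 6.26 ± 0.34. Xbp1 (ENSMUSG00000020484) differed by 2.41 ± 0.26, and Atf4 by 1.40 ± 0.23 but by -0.42 on plain sizes. Ddit3, the pro-apoptotic factor CHOP (0.36 ± 0.37), and Ppp1r15a, the eIF2alpha phosphatase subunit GADD34 (-0.69 ± 0.49), did not pass, and on plain sizes both were called lower in acinar-like cells (-1.84 and -1.87). Trib3 and Chac1 were too low to test. Trib3 had 3 UMIs in 571 acinar-like cells, and Chac1, a glutathione-degrading enzyme, had 24.

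Other genes of the same pathways were counted in the same fit. Of 40 further ER machinery genes tested, 30 were higher and 1 lower, of 15 further ERAD genes 7 were higher and 0 lower, and of 27 further sensors, factors and ATF4 targets 16 were higher and 0 lower. Named by lowest p, they were the prolyl isomerase gene Fkbp11 (7.29 ± 0.30), the isomerase gene P4hb (3.69 ± 0.23), Edem2 (3.97 ± 0.29), the stress-induced regulator Nupr1 (8.10 ± 0.35), Atf5 (4.40 ± 0.29) and the serine synthesis gene Phgdh (4.01 ± 0.25). Without EYFP positive run 2, 24 members were called higher and 1 lower, with a median of 2.13 over the members and -0.45 over all genes.

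Ductal-like cells share the exocrine pancreas with acinar cells and do not store enzymes, and they gave a comparison within 1 epithelium. Of 31 members, 23 were higher and 1, Pdia3 (-0.97 ± 0.33), lower in acinar-like cells, against 11.4% higher and 23.1% lower among all genes. Pdia2 (10.58 ± 0.61), Erp27 (9.66 ± 0.52), Ero1b (7.16 ± 0.41), Asns (6.01 ± 0.43), Edem1 (3.96 ± 0.30) and Sel1l (4.34 ± 0.37) had the lowest p-values apart from Derl3, given above. Xbp1 differed by 2.18 ± 0.35, and Hspa5 by 1.45 ± 0.33 but by -0.58 on plain library sizes. On plain sizes 9 members were higher and 12 lower, and the 9 included each of the 7 leading genes. The median there was -0.40 over the members and -3.15 over all genes.

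Plasma-like cells carried most of the module at higher levels than the classes other than acinar-like had on average. Of 31 members, 27 were higher and 0 lower in plasma-like cells than in the mean of the classes other than acinar-like, where 8.07% of all genes were higher and 1.61% lower. The median was 3.51 over the members (3.29 over the 26 with UMIs in every class) and -0.14 over all genes. Edem1 (5.53 ± 0.27), Creld2 (5.99 ± 0.31), Pdia4 (5.41 ± 0.31), Xbp1 (5.48 ± 0.32) and Hsp90b1 (4.91 ± 0.32) led, together with Derl3, which had 0 UMIs in 3 classes. Plain library sizes gave 23 higher and 0 lower, with a median of 2.37 over the members and -1.23 over all genes.

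Within the B lineage, plasma-like cells were set against B-like cells, from which plasma cells arise. Of 31 members, 27 were higher and 0 lower in plasma-like cells, against 6.31% higher and 4.54% lower among all genes, with a median of 3.33 over the members and -0.27 over all genes. Plain library sizes gave 22 higher and 1 lower, with a median of 1.97 over the members and -1.41 over all genes. Plain CPM are given below because antibody transcripts fill much of a plasma cell's total: Igkc alone took 459680 and 369320 CPM in plasma-like sums.

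Xbp1, the transcription factor that plasma cells require, had 1383 and 1295 CPM in plasma-like sums and 50.7, 57.4 and 93.4 CPM (lowest, median and highest of 6) in B-like sums. Both plasma-like values lay above every B-like value, with a fold change of 5.82 ± 0.43. Creld2, an ER calcium-binding protein, had 517 and 577 CPM in plasma-like sums and 3.59, 15.6 and 26.1 CPM in B-like sums (6.33 ± 0.40). Hsp90b1, which folds immunoglobulins and integrins, had 2927 and 3784 CPM in plasma-like sums and 245, 306 and 361 CPM in B-like sums (5.06 ± 0.43). Hspa5, also known as the binding protein of antibody heavy chains, had 976 and 1261 CPM in plasma-like sums and 223, 363 and 510 CPM in B-like sums (3.33 ± 0.39).

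Dnajc3, a co-chaperone of BiP, had 520 and 537 CPM in plasma-like sums and 31.6, 47.7 and 64.7 CPM in B-like sums (4.83 ± 0.39). Of the ERAD genes, Edem1 had 540 and 564 CPM in plasma-like sums and 22.6, 31.3 and 46.1 CPM in B-like sums (5.52 ± 0.34), and Derl3 had 288 and 158 CPM in plasma-like sums and 0, 4.38 and 10.8 CPM in B-like sums (6.46 ± 0.44). None of these groups overlapped. Pdia4 had 1176 and 698 CPM in plasma-like sums and 92.6, 130 and 238 CPM in B-like sums (4.35 ± 0.38). In the translocon, Ssr4 had 1435 and 1362 CPM in plasma-like sums and 138, 190 and 213 CPM in B-like sums (4.43 ± 0.51).

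The members that did not separate the B lineage were few. Atf4 had 64.6 and 114 CPM in plasma-like sums and 96.9, 139 and 269 CPM in B-like sums (0.78 ± 0.38, adjusted p = 0.224). Ddit3 was called at 1.46 ± 0.51 (adjusted p = 0.048) but gave 0.14 on plain sizes, with 9.69 and 50.3 CPM in plasma-like sums and 16.9, 32.5 and 39.5 CPM in B-like sums. Canx (1.23 ± 0.40) and Ero1b (1.45 ± 0.43) were called but gave -0.13 and -0.04 on plain sizes. Ppp1r15a had 9.69 and 16.8 CPM in plasma-like sums and 61.5, 240 and 1115 CPM in B-like sums and gave -2.01 ± 0.82 (adjusted p = 0.11), which was called lower on plain sizes (-3.30). Pdia2 and Erp27 each had 1 UMI in all plasma-like cells. Chac1 had 5 UMIs in plasma-like and 0 in B-like cells, at least 13.3-fold higher with a floor of 3 counts over the group.

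All 9 members with the ER stress response element were called higher in plasma-like than in B-like cells, with a median of 3.74. Of the 17 tested members whose windows lacked it, 14 were called, with a median of 3.30. On plain sizes, calls were also missing for Canx (-0.13) and Ero1b (-0.04), with the element, and for Ddit3 (0.14) and Sec61g (0.56), without it. Against the other classes, acinar-like cells gave a median of 1.27 over the 9 with the element and 2.30 over the 17 without it.

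Of the further pathway genes, 38 of 40 ER machinery genes, 10 of 15 ERAD genes and 12 of 27 sensors, factors and ATF4 targets were higher in plasma-like than in B-like cells, and 0 were lower. Txndc11 (4.12 ± 0.34), the isomerase gene Txndc5 (3.80 ± 0.32), Edem2 (5.47 ± 0.37), Creb3l2, an ER-bound transcription factor (5.55 ± 0.48), and the amino acid transporter subunit gene Slc3a2 (3.41 ± 0.37) had low p-values in their lists.

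The secretory classes differed from each other. Of 31 members, 3 were higher and 14 lower in acinar-like than in plasma-like cells, against 5.16% higher and 7.87% lower among all genes. Higher were Asns (1.68 ± 0.54), Pdia2, with 4070 UMIs in acinar-like and 1 in plasma-like cells (ratio 569, counting interval 102 to 22487), and Erp27, with 1465 and 1 (ratio 205, interval 36.7 to 8098). These intervals cover counting error only. Lower in acinar-like cells were Pdia4 (-4.78 ± 0.42), Hsp90b1 (-3.85 ± 0.44), Creld2 (-2.64 ± 0.40), Xbp1 (-2.46 ± 0.42), Dnajb9 (-2.74 ± 0.49) and Calr (-2.48 ± 0.45) by lowest p, and Hspa5 (-1.69 ± 0.41) among others.

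By role, 8 of 10 chaperones and 0 of 4 translocon genes were lower in acinar-like than in plasma-like cells. Sec61a1 (0.08 ± 0.42) and Sec61g (0.20 ± 0.59) had fold changes within their errors of 0, and so did Atf4 (0.15 ± 0.41). Plain library sizes gave 2 higher and 19 lower, with a median of -1.98 over the members and -0.94 over all genes. There the translocon genes Ssr4 (-1.98) and Sec61b (-1.53) were called lower in acinar-like cells, and Asns was not called (1.01 ± 0.57). With called doublets kept, 5 were higher and 6 lower; with shared barcodes kept, 5 were higher and 10 lower. As a share of UMIs without enzymes, chaperones took 0.333% and 0.2503% in pancreatitis and 0.223% to 0.317% in homeostasis in acinar-like sums and 0.624% and 0.845% in plasma-like sums. Disulfide genes took 0.682% and 0.472% in pancreatitis and 0.503% to 0.812% in homeostasis in acinar-like sums, and 0.201% and 0.197% in plasma-like sums. Antibody UMIs stayed in the plasma-like totals of these shares. Pdia2 alone had 2793 to 5682 CPM without enzymes in acinar-like sums and Erp27 496 to 1548, and of the 6 disulfide genes 2 were called higher and 3 lower in acinar-like than in plasma-like cells.

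**Figure D3:**
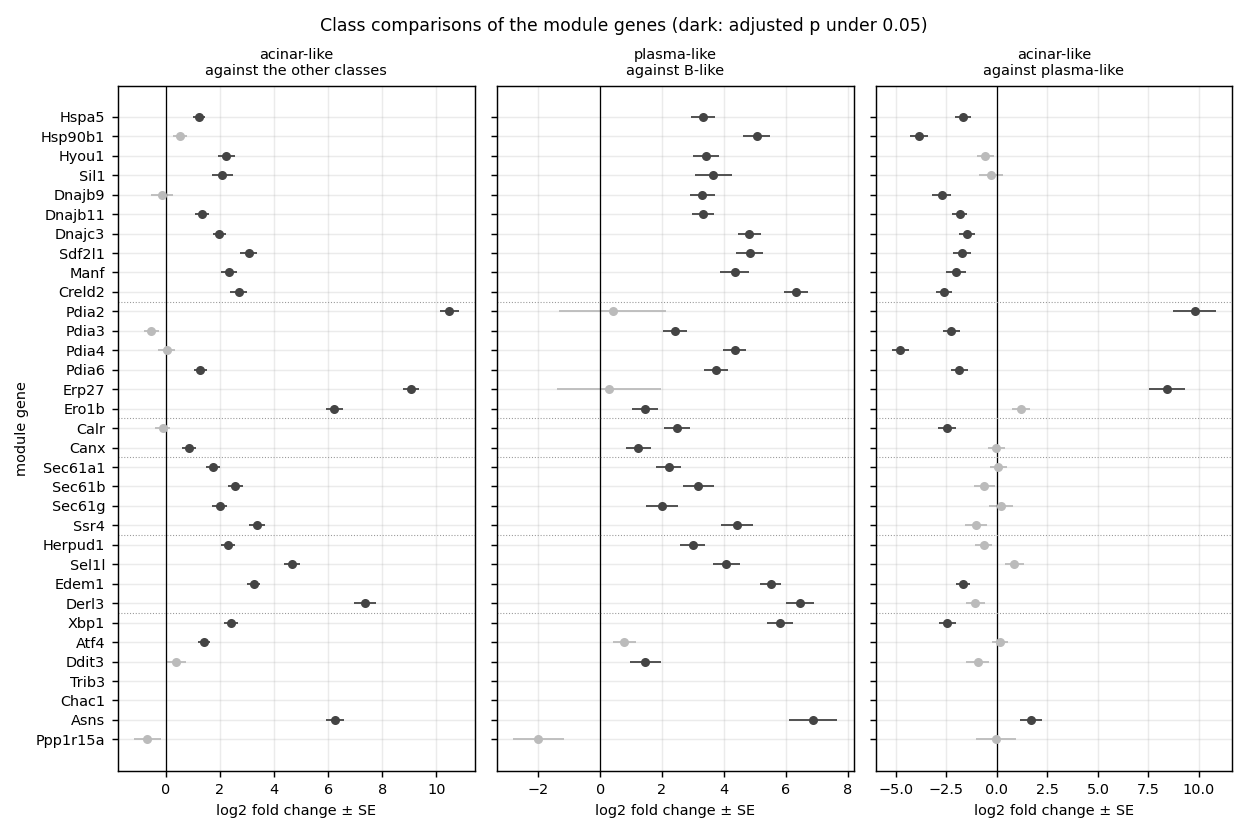
Log2 fold change with its SE, derived from the F of the test (x axis), of each tested member (y axis, grouped by role) in 3 class comparisons. Dark points passed an adjusted p of 0.05. In the left and middle panels 24 and 27 of 31 members lie to the right as called, and in the right panel 3 lie to the right and 14 to the left as called.

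Pancreatitis was compared with homeostasis in acinar-like cells to ask whether the module differed 9 days after cerulein. Of 24 members tested, 0 were called (edgeR quasi-likelihood test, 3 at an unadjusted p under 0.05, 2 lower by DESeq2), against 0.972% higher and 1.67% lower among 720 genes. The median was -0.61 over the members, 18 of which had negative values, and -0.05 over all genes. In a simulation at the depths of these libraries the fit found 82.2% of the tested genes given an 8-fold change but 24.4% of those given a 4-fold change. The simulated libraries shared a common profile and a fixed spread, without the difference that set EYFP positive run 2 apart. In the real libraries, changes of these sizes could therefore be missed more often, and smaller ones as well.

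ERAD genes had the lowest p-values. Sel1l had 165 and 174 CPM without enzymes in EYFP positive and EYFP negative pancreatitis sums, and 801, 3419, 1006 and 1752 in homeostasis (EYFP positive runs 1 and 2, EYFP negative runs 1 and 2). Both pancreatitis libraries lay below all 4 homeostasis libraries, with a fold change of -3.77 ± 1.07 (adjusted p = 0.0746). Herpud1 had 145 and 119.6 CPM without enzymes in pancreatitis, and 400.4, 1641, 309.7 and 610.5 in homeostasis, again without overlap (-2.84 ± 0.97, adjusted p = 0.114). Edem1 had 253 and 176 CPM without enzymes in pancreatitis, and 508, 479, 309.7 and 504 in homeostasis (-1.51 ± 0.62, adjusted p = 0.169).

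The calls moved with the setting. Sel1l was called in 6 of 22 alternatives, with values from -4.45 to -1.93, and Herpud1 in 2 of 22, with values from -5.21 to -1.02. Without EYFP positive run 2, whose acinar-like cells were mostly of cluster 18, both were called lower in pancreatitis: Sel1l at -3.01 ± 0.48 (adjusted p = 0.020) and Herpud1 at -2.10 ± 0.47 (adjusted p = 0.044). Without EYFP positive run 1, Sel1l alone was called (-4.45 ± 0.92, adjusted p = 0.045), and without EYFP negative run 3 it gave -2.81 ± 2.54 (adjusted p = 0.732). Leaving out that library does not remove cluster 18, which held 0 cells in both pancreatitis libraries, 6 in EYFP negative run 2 and 3 in EYFP positive run 1. In EYFP negative run 2 those 6 cells gave 50 of the 66 acinar-like Sel1l UMIs and 14 of the 23 Herpud1 UMIs. With the enzyme-rich clusters alone, neither was called: Sel1l gave -1.93 ± 0.55 (adjusted p = 0.093) and Herpud1 -1.31 ± 0.51 (adjusted p = 0.296). In cluster 13, Sel1l had 177 and 186 CPM without enzymes in EYFP positive and EYFP negative pancreatitis sums, and 405, 1176 and 559 in EYFP positive run 1 and EYFP negative runs 1 and 2. Those 3 homeostasis sums held 22, 12 and 12 Sel1l UMIs.

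Malat1 and the immediate-early gene Fos moved in the same direction. In acinar-like sums Malat1 had 49.2 and 77.5 CPM in EYFP positive and EYFP negative pancreatitis libraries, and 3809, 108430, 340.04 and 21437 CPM in homeostasis. Fos had 6.15 and 0.99 CPM in pancreatitis, and 101, 3612, 60.01 and 397 CPM in homeostasis. Their part in the ERAD values was not tested.

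Of the translocon genes, 3 had positive values and Sec61a1 a negative one. Together the 4 took 0.583% and 0.575% of UMIs without enzymes in EYFP positive and EYFP negative pancreatitis sums, and 0.337%, 0.142%, 0.317% and 0.281% in homeostasis, while the 4 ERAD genes took 0.0671% and 0.0603% in pancreatitis, and 0.183%, 0.586%, 0.170% and 0.311% in homeostasis. Ssr4 (0.90 ± 0.73), Sec61b (0.91 ± 0.67) and Sec61g (0.92 ± 0.70) did not pass the test, nor did Sec61a1 (-1.94 ± 1.02, adjusted p = 0.283), which had 92.9 and 84.1 CPM without enzymes in pancreatitis, and 30.8, 547, 232 and 186 in homeostasis. Manf gave 1.06 ± 0.75. Hspa5 had 877 and 572 CPM without enzymes in pancreatitis, and 893, 1556, 1161 and 769.8 in homeostasis, and the groups overlapped (-1.05 ± 0.75, adjusted p = 0.462).

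Xbp1 had 351 and 296 CPM without enzymes in pancreatitis, and 554, 718, 697 and 743 in homeostasis, with no overlap and no call (-1.49 ± 0.67, adjusted p = 0.206). Pdia2 had 4615 and 2793 CPM without enzymes in pancreatitis, and 5682, 3573, 5109 and 4592 in homeostasis (-0.77 ± 0.77, adjusted p = 0.613). Atf4 gave -1.03 ± 0.62 (adjusted p = 0.366), and Ddit3 was too low to test. Among the further pathway genes 0 of 22 ER machinery, 0 of 4 ERAD and 0 of 7 sensor, factor and ATF4 target genes tested were called (edgeR; 3, 1 and 2 at an unadjusted p under 0.05), and the lowest adjusted p was that of Fgf21 (-4.82 ± 1.39, adjusted p = 0.0762), a hormone gene induced by ATF4, followed by the PERK gene Eif2ak3 (-3.09 ± 1.03, adjusted p = 0.104).

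**Figure D4:**
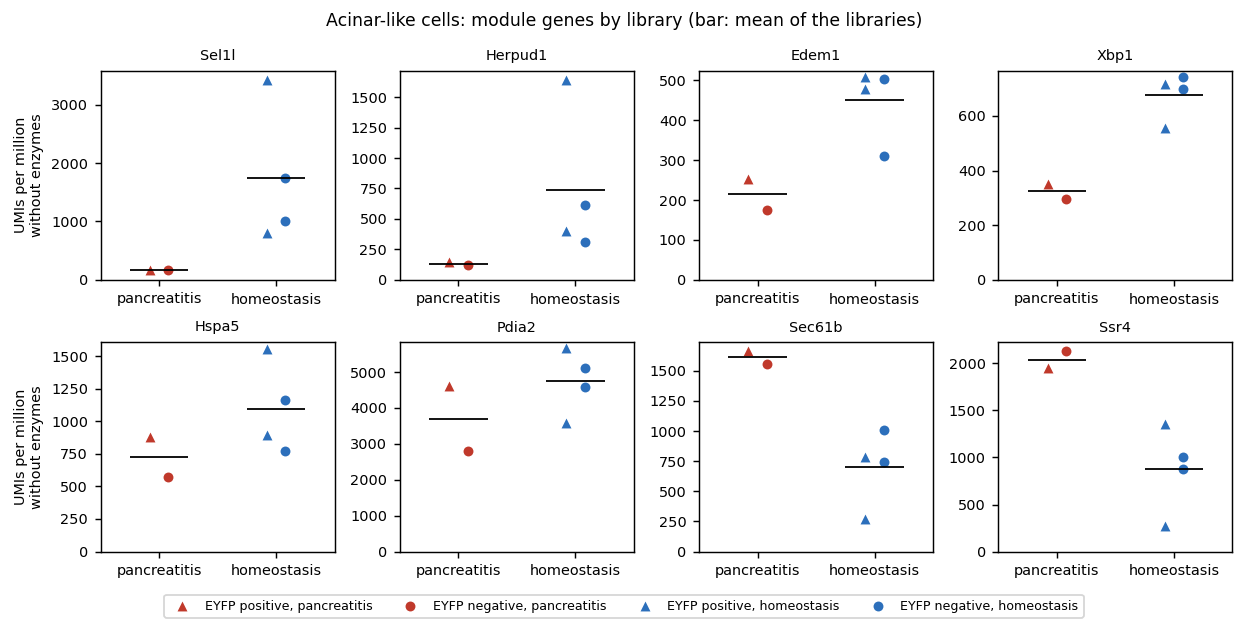
Level of 8 members in acinar-like cells (y axis, CPM without enzymes) in pancreatitis and homeostasis libraries, with the mean of each group as a bar. Sel1l, Herpud1, Edem1 and Xbp1 lie lower and Sec61b and Ssr4 higher in both pancreatitis libraries, none of them called, while Hspa5 and Pdia2 overlap between the groups.

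No difference in the module was detected between acinar-like cells with and without EYFP. Of 24 members 0 were called (edgeR; 0 at an unadjusted p under 0.05, 0 by DESeq2), against 0.00% of 720 genes, with a median of 0.34 over the members and 0.08 over all genes. The difference of the pancreatitis effect between EYFP groups was called for 0 of 28 members (edgeR; 0 at an unadjusted p under 0.05), against 0.00% of 2398 genes. With 3 against 3 libraries, 1 of which stood apart, this does not show that the groups were alike.

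In the other classes, 2 members were called between pancreatitis and homeostasis, both lower in macrophage, monocyte or dendritic-like cells, where 1.71% of 3690 genes were called higher and 3.82% lower. Herpud1 had 78.4 and 20.2 CPM in EYFP positive and EYFP negative pancreatitis sums, and 116, 165, 251 and 257 CPM in homeostasis. The fit, which left out EYFP positive runs 1 and 3 for having under 10 such cells, gave -3.85 ± 0.81 (adjusted p = 0.000607). Ero1b had 2 and 0 UMIs in pancreatitis, and 3, 2, 16 and 23 UMIs in homeostasis (-6.72 ± 2.15, adjusted p = 0.045, a fitted value that depends on the prior count). The fit held 1 pancreatitis library, so both calls rest on it, and no test was left without EYFP negative run 1, 2 or 3. Herpud1 kept its value but not its call with DESeq2 (-3.82, adjusted p = 0.513) and with shared barcodes kept (-3.86, adjusted p = 0.145), and DESeq2 gave Ero1b no adjusted p. Ero1b also lost its call with stricter cell filters (adjusted p = 0.128), doublets kept (0.074), sizes without enzymes (0.083) and odd cells kept (0.129).

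Fibroblast-like cells had higher chaperone values in pancreatitis without a call. Hspa5 had 1679 and 2048 CPM in EYFP positive and EYFP negative pancreatitis sums, and 620.02, 833 and 628 CPM in homeostasis, without overlap. Hsp90b1 had 1931 and 1858 CPM in pancreatitis, and 705, 955 and 998 CPM in homeostasis, and Calr 1427 and 1397 CPM in pancreatitis, and 338, 732 and 636 CPM in homeostasis. The fit could use only the 3 EYFP negative libraries and gave 1.42 ± 0.48 for Hspa5 (adjusted p = 0.152), 0.84 ± 0.48 for Hsp90b1 and 0.96 ± 0.48 for Calr, with 0 of 25 members called against 1.42% of 5227 genes. Of the 25, 20 had positive values, with a median of 0.47, against -0.02 over all genes. The EYFP positive sums rested on 6 cells each.

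Ppp1r15a, the GADD34 gene, varied widely between lymphocyte libraries without a call. In B-like sums it had 542 and 379 CPM in EYFP positive and EYFP negative pancreatitis libraries, and 99.9, 1115, 61.5 and 99.8 CPM in homeostasis (1.19 ± 0.57, adjusted p = 0.706, with 0.514% of 5841 genes called). In T or NK-like sums it had 330 and 300.02 CPM in pancreatitis, and 129, 639, 33.6 and 67.2 CPM in homeostasis (1.21 ± 0.68, adjusted p = 0.892, with 0.528% of 5488 genes called). EYFP positive run 2 was the highest library in both classes, and the other homeostasis libraries lay below both pancreatitis libraries.

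Without EYFP positive run 2, Ppp1r15a was called higher in pancreatitis at 2.27 ± 0.23 in B-like and 2.01 ± 0.34 in T or NK-like cells (edgeR, adjusted p = 1.2e-06 and 0.0089). The immediate-early gene Fos had 869 and 532 CPM in B-like pancreatitis sums, and 169, 1866, 155 and 319 CPM in homeostasis. Its part in the Ppp1r15a values was not tested. In ductal-like and endothelial-like cells 0 members were called between pancreatitis and homeostasis (edgeR; 1 and 3 at an unadjusted p under 0.05), against 0.0653% and 0.0843% of genes.

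Between EYFP positive and EYFP negative libraries 0 members were called in the other classes (edgeR; 2 at an unadjusted p under 0.05 in B-like and 1 in each other class tested). Of all genes 0.0856% were called in B-like, 0.0364% in T or NK-like, 0.379% in ductal-like, 0.0703% in endothelial-like and 1.68% in macrophage, monocyte or dendritic-like cells. Ppp1r15a gave 1.93 ± 0.57 in B-like cells (adjusted p = 0.849) and 1.82 ± 0.68 in T or NK-like cells (adjusted p = 0.997). It was called higher in EYFP positive B-like cells without EYFP negative run 3 (2.80 ± 0.58, adjusted p = 0.044), in EYFP positive ductal-like cells without EYFP positive run 1 (1.73 ± 0.39, adjusted p = 0.0024), and in B-like and T or NK-like cells without a low-count filter (1.81 ± 0.24 and 1.76 ± 0.33).

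**Figure D5:**
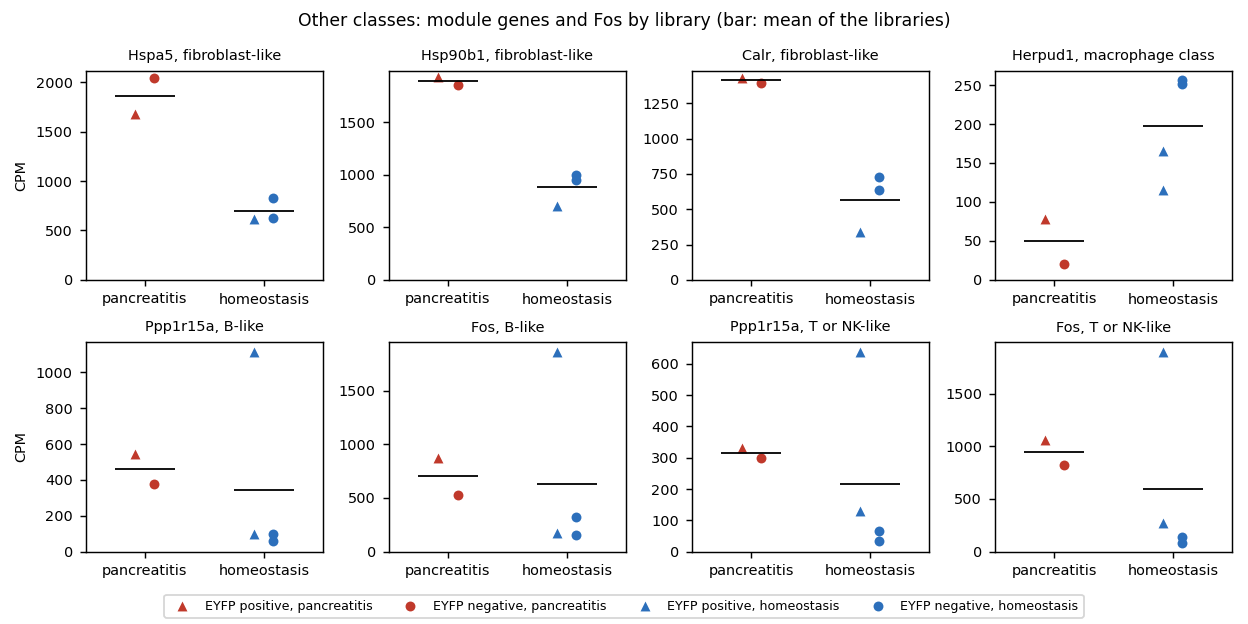
Levels of members outside acinar-like cells, and of the immediate-early gene Fos, in CPM (y axis) in pancreatitis and homeostasis libraries, with the mean of each group as a bar. Fibroblast-like Hspa5, Hsp90b1 and Calr lie higher in both pancreatitis libraries, and in B-like and T or NK-like cells the library with the highest Ppp1r15a, EYFP positive run 2, also has the highest Fos.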

How the data were processed

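Single-cell RNA from 6 libraries was analysed from the deposited UMI counts per gene and barcode, which are raw and not normalized. Per the submitters' processing notes, Cell Ranger 2.1.0 and GRCh38 were used; the file headers name software version 3.1.0 and the features are mouse genes, and no source used here gives the mouse build. Barcodes under 200 genes or over 20% mitochondrial UMIs were removed. Doublets called by Scrublet (3 to 16 per library) were removed. Of each barcode shared within a run, the copy with fewer UMIs was left out, and so were 58 cells at odds with their class; both rules were set after seeing the data. Cells were clustered with scanpy 1.11.5 (2000 variable genes, 30 components, 15 neighbours, Leiden resolution 1) without the module and pathway genes, and classes were rebuilt from marker lists, so they may differ from the study's. After all filters but the last 4792 of 8582 barcodes remained.

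UMIs were summed per library and class and tested with edgeR 4.0.16 (TMM, filterByExpr, quasi-likelihood, Benjamini-Hochberg adjustment over all genes). Class comparisons used class and library as terms and sums of at least 5 cells; pancreatitis and EYFP entered together, with at least 10 cells outside acinar-like cells. DESeq2 1.42.0 and the other alternatives are listed in the closing section; plain library sizes, shared barcodes or odd cells kept, classes left out, run 2 left out as a whole, and mean levels without its EYFP positive library were chosen after seeing the data. CPM were not length-corrected, so levels are compared within a gene. The fits were tested on simulated data with 200 changed genes. Acinar-like sums of the same run number deviated together from their EYFP group means (correlations 0.323, 0.631 and 0.662 over 483 genes). The difference between pancreatitis and homeostasis was not taken out first, and both libraries of a run share that state. These correlations therefore cannot show whether the run numbers pair the EYFP libraries.

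The module and the lists were chosen with earlier results of these data known. All members could be named; each comparison names up to 6 genes of lowest p per direction, and up to 4 per pathway list, besides Hspa5, Pdia2, Xbp1, Atf4 and Ddit3. Ero1b was matched through a RefSeq synonym. Protein sequences were not used here. Intervals and floors cover counting error only.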

Additional observations from a re-analysis of the deposited data

Results flagged for a closer look

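In homeostasis, 3 of 12 groups of 4 libraries tested had a library far from the others, in each case EYFP positive run 2; chance flags about 1 in 20 groups. Its module share was 1.354% of acinar-like UMIs, its acinar-like Hspa5 level was 1213 CPM, and its module share in B-like cells was 0.4325%. Most acinar-like cells of that library were in the enzyme-poor cluster 18, and without enzyme UMIs its module share was 1.74%, within the range of the other libraries.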

How the results depend on the processing

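Of 2188 values of 121 single-gene results under the alternatives, 2061 kept direction and call, 107 lost the call and 20 reversed. Plain library sizes gave 19 of the reversals. Against the other classes, acinar-like values became -0.19 (Hspa5), -0.061 (Sec61g), -1.03 (Canx), -0.60 (Pdia6), -0.42 (Atf4), -0.77 (Dnajb11) and -0.14 (Sil1). Against ductal-like cells they became -0.58 (Hspa5), -0.11 (Sec61b), -0.41 (Sec61a1), -1.12 (Dnajc3), -0.017 (Hyou1), -0.47 (Sec61g), -1.15 (Pdia6), -0.40 (Atf4), -0.88 (Dnajb11) and -1.14 (Sil1). Plasma-like against B-like values became -0.13 (Canx) and -0.036 (Ero1b). With doublets kept, Dnajc3 in acinar-like against plasma-like cells became 0.0010. Scaling shifts all genes here, and the other causes were not tested.

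Counts of called members moved as follows, given without the shares of all genes called in each setting. On plain sizes, acinar-like cells had 12 higher and 9 lower against the other classes and 9 higher and 12 lower against ductal-like cells, and plasma-like against B-like cells had 1 lower. Against the other classes 3 were lower in acinar-like cells with DESeq2, 4 with its size factors, and 1 with enzyme-rich clusters only or without erythroid-like and pericyte-like classes. Against ductal-like cells 2 were lower with DESeq2 or its size factors and 0 with odd cells kept. Against plasma-like cells 5 were higher and 6 lower with doublets kept, and 5 were higher with shared barcodes kept. In plasma-like against B-like cells 1 was lower without a low-count filter, with shared barcodes kept and with stricter cell filters. For pancreatitis in acinar-like cells, 2 were lower with DESeq2, 2 without both libraries of run 2, 1 with EYFP negative libraries only and 1 with sizes without enzymes. For pancreatitis in the other classes, 2 were higher with EYFP negative libraries only and 2 without a filter, while 0 were lower with DESeq2 and with shared barcodes kept and 1 with odd cells kept, doublets kept, sizes without enzymes or stricter filters. For EYFP in the other classes 2 were higher without a filter.

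Leaving out 1 library at a time gave 21 to 24 higher and 0 to 1 lower in acinar-like cells against the other classes, 21 to 23 and 0 to 1 against ductal-like cells, and 2 to 3 and 14 to 15 against plasma-like cells. Plasma-like cells had 26 to 28 higher against the other classes and 25 to 26 against B-like cells, with 0 lower in both. Comparisons with plasma-like cells could not be fitted without EYFP negative run 1 or 2. Their ranges come only from leaving out libraries that added no plasma-like sum, so they do not test the plasma-like values. Pancreatitis gave 0 higher and 0 to 2 lower in acinar-like cells and 0 to 2 higher and 0 to 2 lower in the other classes, and EYFP in the other classes 0 to 1 higher and 0 lower. With the run as a replicate block, the EYFP comparison in acinar-like cells gave 0 members higher and 0 lower, and it changed no call. Small acinar-like and plasma-like cell numbers limit the depth.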
